A study of Homo sapiens with 28 samples.

Results

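The comparison described here sets SK-N-AS-tet MYCN cells at time 24 after doxycycline against the same cells at time 0, with 3 arrays at either time. These are 6 of the 28 arrays of a time course with 7 time points (0, 4, 8, 24, 48, 96 and 192, in a unit that the labels leave out). SK-N-AS cells are a long-established neuroblastoma line of human origin without MYCN amplification, and in the tet derivative doxycycline in the medium switches on a MYCN transgene. The reference line, labelled mock, is SK-N-AS carrying pcDNA6TR, the vector of the tet repressor. It received doxycycline too and has 1 array at each of the 7 times. Its arrays of times 24 and 0 were set beside the comparison as a reference for drug, medium and time in culture without the transgene. With 1 array per time and a line that differed at time 0, they do not measure those effects in the MYCN line. Both lines grew in DMEM with fetal calf serum. The labels do not say which promoter drives the transgene, whether either line is a single clone, nor whether replicates came from separate cultures, so p-values measure only the spread between these arrays, which may be technical. Members were chosen by title alone, and the change was described across all 11865 genes bright enough to be tested.

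MYCN is a basic helix-loop-helix transcription factor of the MYC family. It binds DNA as a dimer with MAX, preferring the hexamer CACGTG, the canonical E-box, near the start sites of active genes. Amplification of MYCN marks aggressive neuroblastoma, a childhood tumour of the sympathetic lineage. In many cell types MYC proteins raise genes of ribosome assembly, nucleotide, polyamine and amino acid supply and mitochondrial protein synthesis, and their induction often goes with lower levels of differentiation, matrix and immune genes.

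RNA was hybridised to 1-colour Affymetrix arrays, and values are signals on a linear scale. A change is the log2 difference of time 24 minus time 0, given with its standard error (SE), so that 1 is a doubling. Genes were tested with limma, two-sided, in a joint fit over all 7 times of that line (21 arrays), and a gene was called where its p-value adjusted over all genes (Benjamini-Hochberg) was under 0.05. Signals under 12.8 were treated as near background. The 2%-trimmed mean signal was 100 on all 28 arrays. Log2 signals of the 3 arrays of a time correlated at 0.9762 to 0.9854, and arrays of time 24 with those of time 0 at 0.9647 to 0.9749. The 3'/5' signal ratio of ACTB, a sign of RNA integrity, was 1.13 to 1.31 at time 24 and 1.16 to 1.22 at time 0. Spiked hybridisation controls split the arrays into sets: the control bioD had signals of 1544 to 1941 on the MYCN line arrays numbered 1 and 2, and of 2322 to 2770 on those numbered 3 and on the mock arrays. The number of arrays limits the precision.

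MYCN itself, the gene that doxycycline induces, was read first as a check of the labels. It read 4419.8, 4094 and 4600.4 on the 3 arrays of time 24, against 69.4, 79.2 and 103 at time 0. Its change was 5.72 (SE 0.17, limma adjusted p = 1.51e-14), and it stood at 2.4 and 2.3 in the mock line at times 24 and 0. A single probe set of 10 carried this reading, while the other 9 stayed at or under 32.7 on every array. Probe sets suffixed _s_at or _x_at may recognise more than 1 transcript, and without them MYCN was read by a probe set near background with a change of -1.45 (adjusted p = 0.237). Nearly all of the increase was already there at time 8, when the change was 5.57.

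Markers of the line's cell state were compared with those of other cells the culture could hold. The mesenchymal neuroblastoma genes VIM and PRRX1 averaged 5529 ± 572 and 752 ± 107 at time 24 and 5932 ± 339.5 and 861 ± 70.7 at time 0 (SD, n = 3), while the noradrenergic enzymes TH and DBH stayed at 3.33 or below in both groups. Other noradrenergic genes were above background. GATA3, ISL1, GATA2 and HAND2 averaged 252, 148, 106 and 25.4 at time 24 and 300, 154, 93.5 and 32.8 at time 0. Further mesenchymal markers moved both ways. FOSL1, CD44 and NOTCH2 averaged 375, 993.5 and 13.5 at time 24 and 239, 793.9 and 7.83 at time 0. SNAI2, FOSL2 and FN1 averaged 144, 189 and 1159 at time 24 and 219, 220 and 2162 at time 0. The 27 mesenchymal markers with a probe set summed to 14440 to 14810 at time 24 and 15530 to 16620 at time 0. The 22 noradrenergic markers with a probe set summed to 1841 to 2156 at time 24 and 2476 to 2991 at time 0. Schwann cell markers (S100B and SOX10), endothelial VWF and CDH5 and leukocyte CD14 were near background at both times. Endothelial PECAM1 averaged 72.0 at time 24 and 55.5 at time 0, and the fibroblast genes DCN and LUM were strong (1350 and 2445 at time 24, 2376 and 2845 at time 0). The 12 fibroblast and endothelial markers with a probe set summed to 4873 to 5834 at time 24 and 7204 to 7950 at time 0, and in the mock line to 8952 and 7717. The 2 lines differed before the drug. PHOX2A, a noradrenergic factor, averaged 8.0 and 4.37 at times 24 and 0 in cells with the transgene and read 631 and 768 in the mock line. The leukocyte marker PTPRC averaged 14.6 and 21 in cells with the transgene and read 221 and 262 in the mock line. In bulk RNA, fewer cells of a kind and less RNA per cell cannot be told apart. The part of these shifts in the results below was not tested.

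At time 24 the transcriptome differed from that of time 0 in both directions and mostly by small steps. A total of 852 of 11865 genes were called (7.18%), 464 higher (3.91%) and 388 lower (3.27%), and 2622 genes had an unadjusted p under 0.05. The median change was 0.53 among genes called higher and -0.63 among those called lower. Of the called genes 126 had changed at least 2-fold (1.06%), 54 of them higher (0.455%) and 72 lower (0.607%). In 463 of the 464 higher genes and 387 of the 388 lower genes the arrays of the 2 times did not overlap, where 12% of all genes tested had arrays apart upward and 14.9% downward. The median change over all genes was -0.0256. Scaling arrays to equal medians instead moved it to 0.0466 and gave 336 higher and 171 lower genes, so 66.3% of calls were upward, against 54.5% with the deposited scaling. A fit of only the arrays of times 24 and 0 gave 313 higher and 403 lower genes, of which 43.7% were upward. The number of calls also rested on single arrays. It was 195 without replicate 1 of every time, 164 without replicate 2 and 656 without replicate 3, and 429, 543 and 635 without replicate 1, 2 or 3 of time 24 alone. Without replicate 3 of time 0 it was 555. Split by the control signal, it was 656 within replicates 1 and 2 and 1604 with the set as a block.

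**Figure D1:**
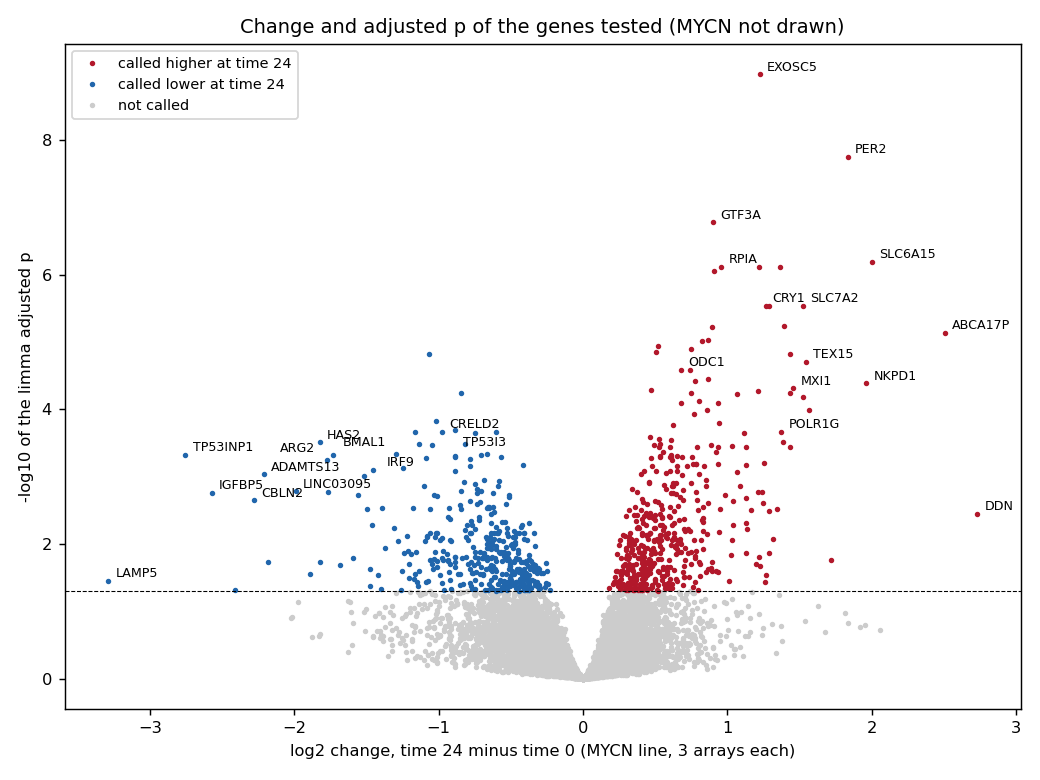
Each point is a gene tested, with its log2 change between time 24 and time 0 of the MYCN line (x axis) and the -log10 of its limma adjusted p (y axis, dashed line at 0.05); MYCN, at a change of 5.72, is not drawn. The 464 genes called higher (red) cluster at small changes with a few steep ones such as PER2 and EXOSC5, and the 388 called lower (blue) reach larger changes at weaker p-values, down to LAMP5 at -3.29.

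Apart from MYCN, the steepest increases belonged to genes of unlike functions. DDN, which encodes the synaptic protein dendrin, read 62.8, 94.7 and 104 at time 24 and 5.2, 16.7 and 24.3 at time 0, a change of 2.73 (SE 0.54, limma adjusted p = 0.00353). ABCA17P, a transcribed pseudogene of the ABC transporters, read 105, 117 and 105 at time 24 and 20.3, 24.7 and 13.9 at time 0 (change 2.51, adjusted p = 7.28e-06). SLC6A15, a carrier of neutral amino acids, read 263, 166 and 258 at time 24 and 58.8, 55.8 and 53.2 at time 0 (change 2.01, adjusted p = 6.45e-07). In all 3 genes every array of time 24 lay above every array of time 0. NKPD1 (1.96), the potassium channel gene KCNJ15 (1.72), the repressor-type E2F factor E2F5 (1.57), and TEX15 (1.55) and STAG3 (1.53), both known from meiosis, followed. STAG3 has near-identical pseudogene copies, so its probe set may read more than 1 locus. The arginine carrier SLC7A2 (1.53), the kinase SIK1 (1.44), COQ8A of coenzyme Q synthesis (1.44) and the lysosomal protease CTSF (1.43) came next, and PER2 (1.84) and MXI1 (1.46), described further on, complete the 15. The call of DDN ended without replicate 1 (2.30, adjusted p = 0.0572) or replicate 2 (2.85, adjusted p = 0.113) of every time, and that of KCNJ15, with 16.2, 15.1 and 19.7 at time 24 and 2.7, 9.0 and 5.6 at time 0, ended in 7 of 17 alternative settings. E2F5 lost its call with the mean of its probe sets (0.70) and SIK1 with that mean (0.93) or without suffixed probe sets (0.42).

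Beside MYCN, PER2 and SLC6A15, some of the smallest p-values belonged to genes with smaller changes, 6 of which are named here after their values were seen. EXOSC5, a subunit of the RNA exosome, read 987, 976 and 1028 at time 24 and 416, 424 and 439 at time 0, a change of 1.23 (SE 0.07, limma adjusted p = 1.04e-09). GTF3A, the factor that starts transcription of the 5S ribosomal RNA genes, rose by 0.90 (SE 0.07), the pseudouridine synthase gene PUS7 by 0.91 (SE 0.08), RPIA of the pentose phosphate pathway by 0.96 (SE 0.08) and SLC25A26, the mitochondrial carrier of S-adenosylmethionine, by 1.22 (SE 0.11). TAF4B, a TFIID subunit, rose by 1.36 (SE 0.12). None of these 6 calls was lost under any of the 20 alternative settings that tested the gene.

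Within the MYC network, partners and antagonists moved in different directions. MAX, the obligate partner of MYCN, read 1306, 1273 and 1199 at time 24 and 969, 957 and 886 at time 0 (change 0.43, SE 0.07, limma adjusted p = 8.12e-04). MXI1, an antagonist that competes for MAX, read 987, 782 and 971 at time 24 and 346, 401 and 261 at time 0 (change 1.46, adjusted p = 4.84e-05). MXD1, another antagonist, was lower, with 30.5, 41.1 and 53.8 at time 24 and 70.5, 68.9 and 68.3 at time 0 (change -0.77, adjusted p = 0.0272). The endogenous MYC gene read 85.8, 101 and 65.1 at time 24 and 308, 131 and 223 at time 0. Its arrays did not overlap, yet the change of -1.33 (SE 0.48) did not pass the test (limma adjusted p = 0.101), and the mock line read 291 and 256. In all, 3 of 10 network genes tested were higher and 1 lower (limma, 5 higher and 2 lower unadjusted). That is 40% of the list, beside 7.18% of all genes tested. The count includes MYCN, the induced gene, whose increase was set by the design. MAX lost its call without suffixed probe sets (-0.26), with the mean of its probe sets (0.22) and without replicate 1 (0.42) or replicate 2 (0.43), while MXD1 lost it in 10 of 19 settings.

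Calls among genes that build ribosomes were upward, and those among genes of the ribosome itself lay in the mitochondrial set. Of 35 ribosome biogenesis genes tested, 8 were called higher and none lower (limma; by unadjusted p under 0.05, 18 higher and 0 lower), with a median change of 0.24, beside -0.03 over all genes tested and -0.15 for the list in the mock line. RRP9, a U3 snoRNP protein, read 171, 215 and 207 at time 24 and 73.9, 76.0 and 129 at time 0 (change 1.13, adjusted p = 6.69e-04). DDX10, WDR12 and IMP4, all factors of pre-rRNA processing, rose by 0.77, 0.47 and 0.41. Of 23 subunit genes of RNA polymerases I and III, which transcribe ribosomal and transfer RNA, 5 were higher and none lower (8 and 2 unadjusted), with a median of 0.17. POLR1G read 443, 561 and 532 at time 24 and 183, 171 and 243 at time 0 (change 1.37, adjusted p = 2.16e-04), without overlap, and POLR3G, POLR1B and POLR3E rose by 1.06, 0.62 and 0.42. The 40 cytosolic ribosomal protein genes held no call (limma, 0 higher and 2 lower unadjusted; median -0.03, in the mock line 0.17). Of 53 mitochondrial ribosomal protein genes 10 were higher and none lower (22 and 1 unadjusted), with a median of 0.18 and, for example, MRPL19 at 0.42 and MRPS12 at 0.34. RRP9 lost its call without replicate 1 (1.09, adjusted p = 0.0502) or 2 (0.95, adjusted p = 0.0938), IMP4 (0.34) and WDR12 (0.47) without replicate 2, DDX10 with the mean of its probe sets (-0.14), POLR1B with that mean (0.34), without suffixed probe sets (0.20) or without replicate 2 (0.61), and POLR3G with that mean (0.75). POLR3E, MRPL19 and MRPS12 lost theirs in 7, 6 and 5 settings.

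**Figure D2:**
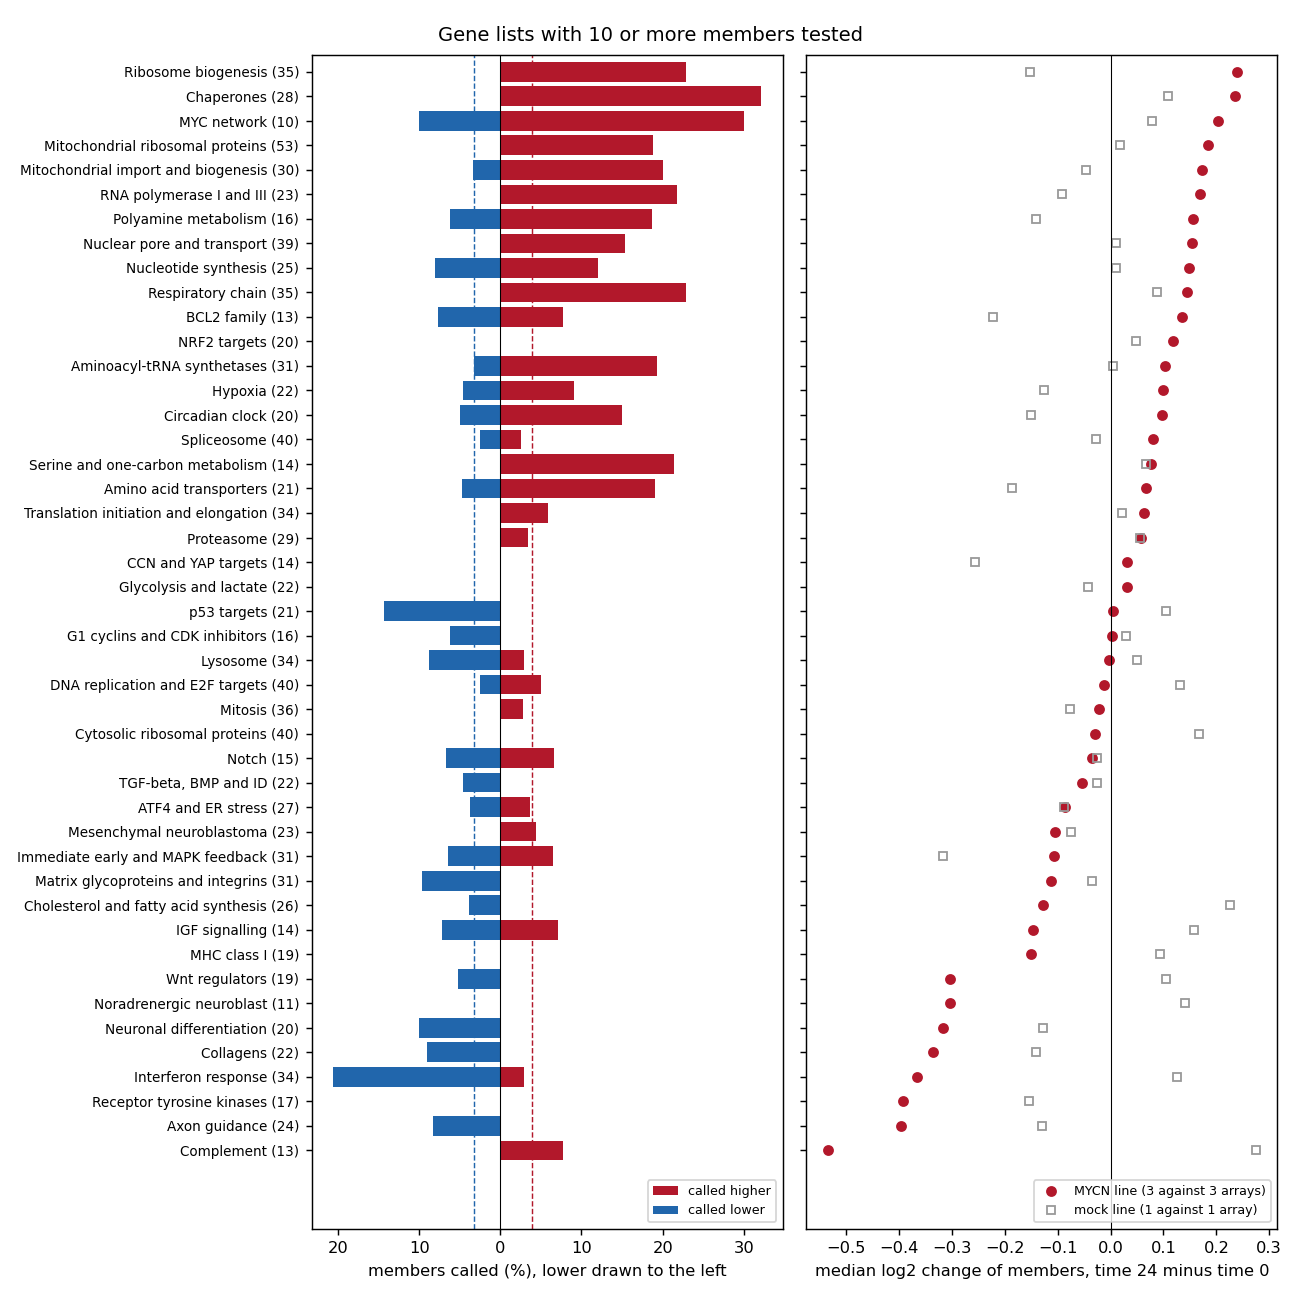
Gene lists with 10 or more members tested (number in brackets), ordered by median change. Left, percent of members called higher (red) and lower (blue, drawn to the left), with dashed lines at 3.91% and 3.27%, the shares over all genes; right, median log2 change of time 24 minus time 0 in the MYCN line (filled) and between the single mock arrays (open). Ribosome biogenesis and chaperones head the order at 0.24, and 7 of the 34 interferon response genes were called lower.

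Among 34 genes of translation initiation and elongation 2 were higher, EIF3J (0.46) and EIF5A (0.59), and none lower (limma, 5 and 1 unadjusted). That is 5.88% of the list, under the 7.18% of all genes tested. Among 31 aminoacyl-tRNA synthetase genes 6 were higher and 1 lower, with a median of 0.10. The mitochondrial MARS2 and NARS2 rose by 0.93 and 0.65, and the cytosolic FARSB and NARS1 by 0.32 and 0.29. MARS2 read 92, 90 and 77.1 at time 24 and 45.8, 49.1 and 40.8 at time 0, so its arrays did not overlap. Nuclear pore and transport genes were higher in 6 of 39 and lower in none (14 and 2 unadjusted), among them XPOT, the export receptor of tRNA (0.38), and XPO5, that of microRNA precursors (0.41). MARS2 lost its call without replicate 1 (0.90, adjusted p = 0.0568), NARS2 (0.66), EIF3J (0.43) and XPOT (0.39) without replicate 2, XPOT also with equal medians (0.45), and EIF5A, FARSB, XPO5 and NARS1 in 11, 7, 7 and 5 settings.

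In the supply pathways single enzymes and carriers were called. ODC1, the rate-limiting enzyme of polyamine synthesis, read 2030.1, 2313 and 2111 at time 24 and 1479.8, 1257 and 1301 at time 0, a change of 0.68 (SE 0.08, limma adjusted p = 2.60e-05). ARG2, the mitochondrial arginase, went the other way with 21, 20.6 and 19.9 at time 24 and 67.3, 89.3 and 57.1 at time 0 (change -1.77, adjusted p = 5.58e-04). In all, 3 of 16 polyamine genes were higher and 1 lower. PPAT, PFAS and PAICS, enzymes of de novo purine synthesis, rose by 0.79, 0.62 and 0.37, while IMPDH2, of the guanine branch, fell by 0.36 and RRM2, the small subunit of ribonucleotide reductase, fell by 0.45. MTHFD2, of mitochondrial folate metabolism, rose by 0.62, and with AHCY (0.28) and GCSH (0.44) made 3 of 14 serine and one-carbon genes higher and none lower (5 and 0 unadjusted). Amino acid transporters held 4 higher and 1 lower of 21. SLC7A5, the large neutral carrier, read 173, 254 and 199 at time 24 and 121, 60.8 and 81.7 at time 0 (change 1.29, adjusted p = 0.0138), and its call ended without replicate 2 of every time (0.90, adjusted p = 0.266) or of time 24 (1.14) or time 0 (1.05). SLC6A8, the creatine carrier, rose by 0.63. ARG2 (-0.18) and PPAT (0.38) lost their calls without suffixed probe sets, MTHFD2 (0.61) and PFAS (0.65) without replicate 2. PAICS, IMPDH2, RRM2, AHCY, GCSH and SLC6A8 lost theirs in 6, 6, 12, 9, 4 and 3 settings. The 22 glycolysis genes held no call (limma, 4 higher and 2 lower unadjusted), with GPI at 0.22 (adjusted p = 0.0667).

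Chaperone and mitochondrial genes held calls that were mostly upward. All 28 chaperone genes tested had a positive change and 9 were called higher (21 higher and 0 lower unadjusted), with a median of 0.24 and 0.11 in the mock line. HSPE1, the mitochondrial co-chaperonin, read 3605, 3356 and 3403 at time 24 and 2871, 2746 and 2629 at time 0 (change 0.33, limma adjusted p = 0.00839). HSPA9, the mitochondrial HSP70, rose by 0.40, TRAP1, the HSP90 of that organelle, by 0.50 and the cyclophilin PPID by 0.67. Of 35 respiratory chain genes 8 were higher and none lower (17 and 0 unadjusted), with a median of 0.15 and 0.09 in the mock line. The list was led by ATP5MC1 of the ATP synthase ring (0.58). Import and biogenesis genes held 6 higher and 1 lower of 30. PHB1, a prohibitin of the inner membrane, read 2525, 2389 and 2516 at time 24 and 1842, 1709 and 1811 at time 0 (change 0.47, SE 0.06, adjusted p = 5.18e-05), a call held in all 19 settings that tested it. PPARGC1B, a coactivator of mitochondrial genes, rose by 1.24, and TFB2M, a mitochondrial transcription factor, by 0.53. HSPA9 lost its call with the mean of its probe sets (0.09) or without replicate 2 (0.38), TRAP1 with that mean (0.18) or without replicate 1 (0.51) or 2 (0.56), and PPID without suffixed probe sets (-0.03) or replicate 2 (0.68). ATP5MC1 lost it without replicate 1 (0.57), TFB2M without replicate 2 (0.47), PPARGC1B with that mean (0.72) or without replicate 1 (1.24) or 2 (1.15), and HSPE1 in 5 settings.

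Circadian clock genes held some of the steepest changes. PER2, a repressor of the clock, read 222, 227 and 228 at time 24 and 63.8, 65.2 and 60.7 at time 0, a change of 1.84 (SE 0.12, limma adjusted p = 1.75e-08). CRY1, its partner in repression, read 1100.5, 1047 and 934 at time 24 and 524, 363 and 407 at time 0 (change 1.27, adjusted p = 2.88e-06). BHLHE41, an E-box-binding repressor, read 65.0, 66.2 and 62.9 at time 24 and 40.7, 18.5 and 26.7 at time 0 (change 1.25, adjusted p = 0.00247). BMAL1, the activator that PER and CRY proteins restrain, read 31.4, 28.7 and 30.3 at time 24 and 103, 108 and 89.2 at time 0 (change -1.73, adjusted p = 4.78e-04). The arrays of time 24 and time 0 did not overlap for any of these 4 genes, so these repressors stood higher and the activator BMAL1 lower. These 4 genes are the called members of the list, and nearly all called genes had arrays apart. In the mock line PER2 read 78.5 and 60.1, CRY1 367 and 382, BHLHE41 44.3 and 62.6 and BMAL1 72.2 and 78.0 at times 24 and 0. Of 20 clock genes tested 3 were higher and 1 lower (limma, 6 higher and 3 lower unadjusted). That is 20% of the list, beside 7.18% of all genes tested. The list median was 0.10, and 11 of the 20 had a positive change. BHLHE41 lost its call with the mean of its probe sets (0.47) and without replicate 2 (0.96, adjusted p = 0.141).

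**Figure D3:**
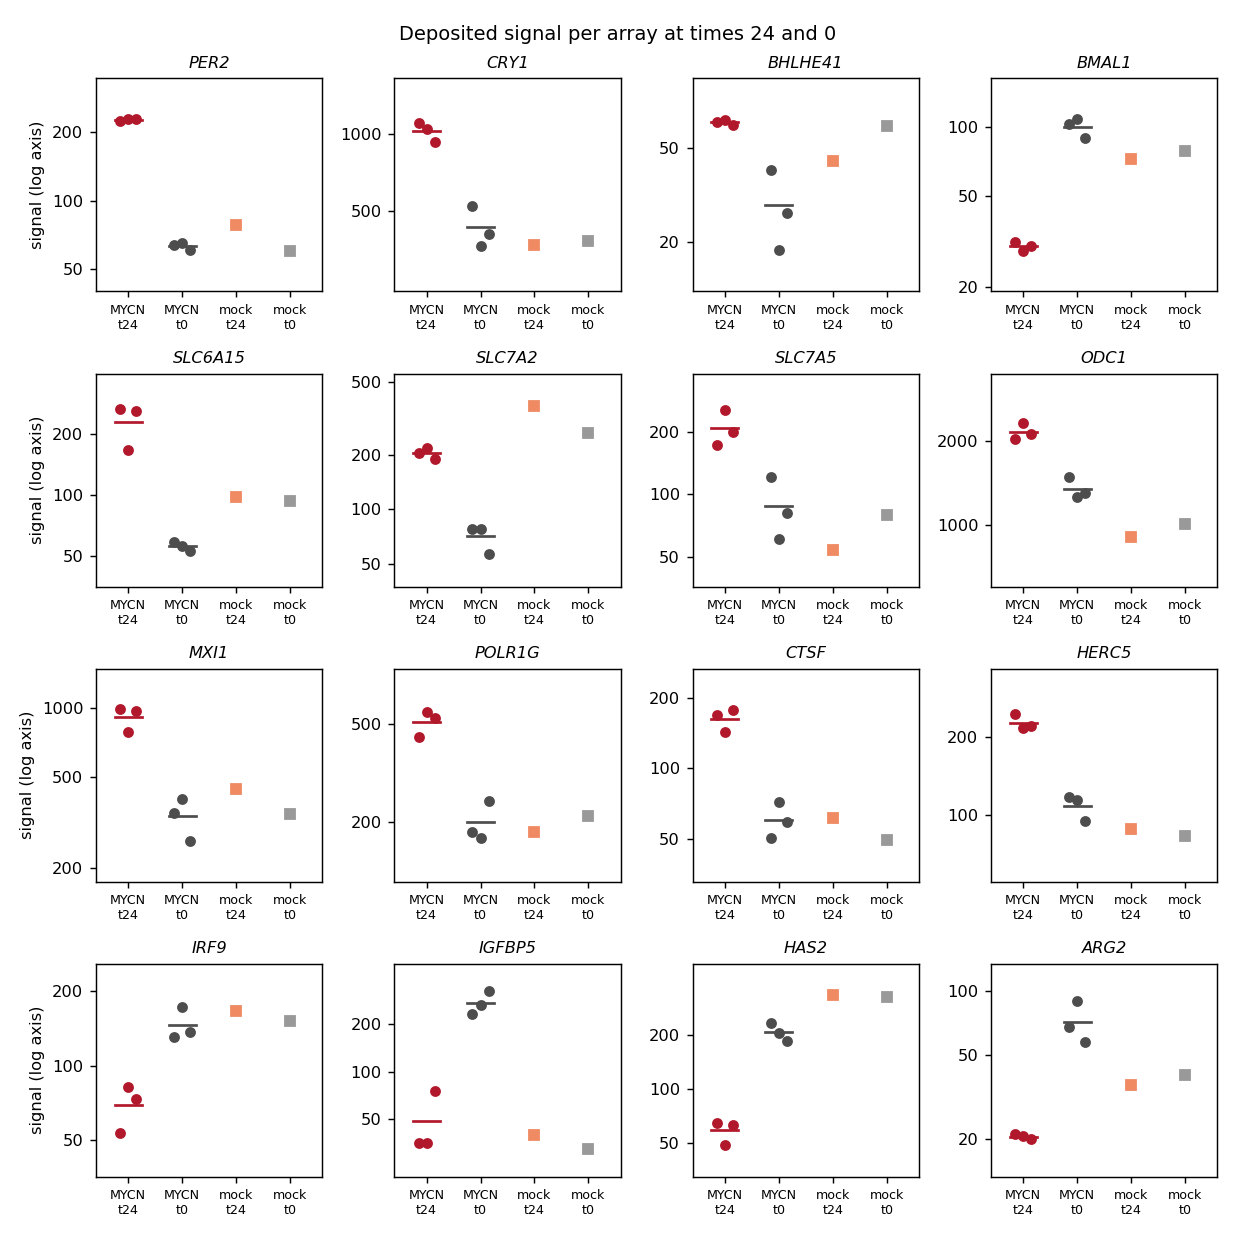
Deposited signal (log axis, a scale for each panel) of 16 named genes on the 3 arrays of the MYCN line at time 24 (red circles) and time 0 (grey circles), with the mean as a line, and on the single mock arrays of time 24 and time 0 (squares). For all 16 genes the arrays of time 24 lay apart from those of time 0, above them for the repressors PER2 and CRY1 and below them for BMAL1.

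Of 40 DNA replication and E2F target genes 2 were higher and 1 lower (limma, 4 higher and 7 lower unadjusted), with a median of -0.01. That is 7.5% of the list, near the 7.18% of all genes tested. CCNE1, cyclin E1, read 209, 249 and 269 at time 24 and 176, 153 and 179 at time 0 (change 0.51, adjusted p = 0.00830), GINS4 of the replicative helicase rose by 0.80 and LIG1, DNA ligase 1, fell by 0.54. In the mock line GINS4 read 742 and 282 at times 24 and 0, a larger single-array change than in the MYCN line. MAD2L1 of the spindle checkpoint (0.42) was the 1 mitosis gene called among 36 (2.78%, under the 7.18% of all genes). By unadjusted p, 1 mitosis gene was higher and 6 were lower, and the list median was -0.02. CDKN1C, the CDK inhibitor p57, read 31.4, 19.8 and 20.0 at time 24 and 45.8, 66.8 and 48.6 at time 0 (change -1.19, adjusted p = 0.0140). Among 21 p53 targets 3 were lower and none higher (limma, 3 higher and 4 lower unadjusted). That is 14.3% of the list beside 7.18% of all genes tested, and the list median was 0.0045. TP53INP1 read 7.3, 4.1 and 9.5 at time 24, under the limit of 12.8, and 32.0, 65.1 and 41.9 at time 0 (change -2.75), and TP53I3 and DDB2 fell by 0.88 and 0.77. CCNE1 turned with the mean of its probe sets (-0.10) and lost its call without replicate 2 (0.42), TP53INP1 lost it without replicate 2 (-2.14, adjusted p = 0.0831), DDB2 without replicate 1 (-0.83) or 2 (-0.63), LIG1 with equal medians (-0.46) or without replicate 1 (-0.57) or 2 (-0.47), and GINS4, MAD2L1 and CDKN1C in 6, 7 and 5 settings.

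Of the 49 gene lists, the interferon response held the most members called lower. Of 34 tested, 7 were lower and 1 higher (1 higher and 15 lower unadjusted), and 4 of the 34 had a positive change. The median was -0.37, and 0.12 in the mock line. IRF9, the DNA-binding part of the interferon-stimulated complex ISGF3, read 53.4, 81.7 and 73.0 at time 24 and 129.9, 172 and 136 at time 0 (change -1.08, SE 0.17, limma adjusted p = 5.34e-04). IRF7, which amplifies the interferon response, read 30.9, 40.1 and 37.6 at time 24 and 75.0, 82.7 and 74.0 at time 0 (change -1.10, adjusted p = 0.00139). For both genes every array of time 24 lay below those of time 0, and IFIT2, an antiviral effector, fell by 0.78. HERC5, the ligase of the ubiquitin-like ISG15, was the exception, with 246, 217 and 222 at time 24 and 118, 114 and 94.9 at time 0 (change 1.07, adjusted p = 5.93e-05). The 19 MHC class I genes held no call (limma, 0 higher and 3 lower unadjusted), with a median of -0.15 and PSME1, a proteasome activator, at -0.19 (adjusted p = 0.187). IRF7 lost its call without replicate 1 (-1.01) or 2 (-1.13), and IFIT2 with the mean of its probe sets (-0.46) or without replicate 1 (-0.66) or 2 (-0.79).

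The 15 largest decreases were in genes of unlike functions. LAMP5, a lysosomal membrane protein of neurons, read 2.0, 5.5 and 21 at time 24 and 36.5, 57.3 and 103 at time 0 (change -3.29, SE 0.92, limma adjusted p = 0.0350). IGFBP5, an IGF-binding protein, read 35.5, 35.3 and 75.6 at time 24 and 233, 264 and 323 at time 0 (change -2.57, adjusted p = 0.00174). HAS2, the hyaluronan synthase, read 65.0, 49.0 and 63.7 at time 24 and 235, 205 and 186 at time 0 (change -1.82, adjusted p = 3.08e-04). None of the 3 genes had overlapping arrays, though the LAMP5 arrays of time 24 were far apart from each other. The synaptic organiser CBLN2 (-2.28), the protease ADAMTS13 (-2.21), the transcript LINC03095 (-1.99), AHNAK2 (-1.89), the dynamin DNM3 (-1.82), NDRG4 (-1.77) and the actin regulator CORO2B (-1.68) were among the 15 largest decreases, with TP53INP1, BMAL1 and ARG2 given above. CAPS (-2.41) and PSG6 (-2.18), of a family with near-identical members, read under 12.8 on 3 and 2 of the 3 arrays of time 24. ADAMTS13 was under that limit on all 3 as well, and LAMP5 and CORO2B were on 2 of the 3, so the changes of these 5 genes end at or near background and their sizes and order are uncertain. IGFBP5 lost its call without replicate 1 (-2.50, adjusted p = 0.0968), CBLN2 without replicate 1 (-2.30) or 2 (-2.21), NDRG4 (-1.56) and LINC03095 (-1.64) without replicate 2, and LAMP5, AHNAK2, DNM3, CORO2B, CAPS and PSG6 in 8, 10, 6, 5, 12 and 9 settings.

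The few calls among matrix genes were downward. Of 22 collagen genes 2 were lower and none higher (limma, 0 higher and 5 lower unadjusted), with a median of -0.34 and -0.14 in the mock line. That is 9.09% of the list, near the 7.18% of all genes tested. COL5A1 fell by 1.09 and COL4A6 by 0.63. The summed fibroblast and endothelial markers, 4873 to 5834 at time 24 and 7204 to 7950 at time 0, moved the same way, and their part in these values was not tested. Of 31 matrix glycoprotein and integrin genes HAS2, TNC (tenascin C, -1.26) and LAMB2 (laminin beta 2, -0.61) were lower and none was higher (0 and 9 unadjusted). That share, 9.68%, is also near the 7.18% of all genes tested, and the list median was -0.11. FN1, fibronectin, read 977, 1260.2 and 1240.4 at time 24 and 2139, 2006 and 2343 at time 0, yet its change of -0.91 (SE 0.27) missed the threshold (limma adjusted p = 0.0507). It passed in 8 of 19 alternative settings. FN1 is also a mesenchymal marker, and among the 23 of those 1 was called, SIX4 (0.78), or 4.35% beside 7.18% of all genes tested. FZD7, a Wnt receptor, fell by 1.17, NRP1, a semaphorin and VEGF co-receptor, by 0.41, SPRY2, a feedback inhibitor of receptor tyrosine kinases, by 0.80, and the MAPK phosphatase DUSP10 by 0.73. The AP-1 member JUNB rose by 1.04. The neuronal genes STMN1 and TUBB2A, of microtubules, fell by 0.41 and 0.58, and 0 of 11 noradrenergic genes were called (limma, 0 higher and 3 lower unadjusted; median -0.30). FZD7 (-1.22) and JUNB (0.97) lost their calls without replicate 2, DUSP10 (-0.62) without replicate 1, SPRY2 without replicate 1 of every time (-0.61) or of time 24 (-0.73), and COL5A1, COL4A6, TNC, LAMB2, SIX4, NRP1, STMN1 and TUBB2A in 11, 6, 8, 10, 6, 4, 4 and 14 settings.

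Among the remaining lists, CRELD2, an endoplasmic reticulum stress gene, fell by 0.97 (SE 0.14, limma adjusted p = 2.14e-04), whereas DNAJB9, another chaperone of that compartment, rose by 0.78. In that list 1 gene was called higher and 1 lower of 27 (7.41%, near the 7.18% of all genes tested). BID, which links death receptors to mitochondria, rose by 0.70 and BNIP3L, a mitophagy receptor, fell by 0.52. The neuropeptide GAL, galanin, read 157, 191 and 170 at time 24 and 91.9, 97.5 and 99.4 at time 0 (change 0.84, adjusted p = 6.93e-04). The Notch ligand DLL3 rose by 0.94 and the hypoxia gene ANKRD37 by 1.13. The NRF2 target, CCN and YAP target, and receptor tyrosine kinase lists held no call in 20, 14 and 17 genes tested (limma, unadjusted 4, 0 and 0 higher and 1, 1 and 5 lower). Their medians were 0.12, 0.03 and -0.39. Spliceosome genes held 1 higher and 1 lower of 40 (5%) and proteasome genes 1 higher of 29 (3.45%; PSMG1, 0.34), both under the 7.18% of all genes tested. GAL lost its call with the mean of its probe sets (0.85) or without replicate 2 (0.78), BID (0.62), ANKRD37 (0.85), DNAJB9 (0.79), BNIP3L (-0.46) and DLL3 (1.05) without replicate 2, BID (0.71), BNIP3L (-0.49) and DLL3 (0.70) also without replicate 1, and ANKRD37 (1.19) and DLL3 (0.32) also with that mean. BNIP3L lost it with equal medians too (-0.45).

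To set the called genes beside the motif that MYCN prefers, the hexamer CACGTG, its own reverse complement, was searched in RefSeq promoters of GRCh38.p14, from 250 bases before to 50 after the gene start. A promoter was found for 382 of the 464 genes called higher and 330 of the 388 called lower. The hexamer lay in 100 of the 382 promoters of genes called higher (26.2%), in 21 of the 330 of genes called lower (6.36%), in 902 of 9019 of genes not called (10.0%) and in 1023 of 9731 over all genes tested (10.5%). It lay in 2030 of all 27305 promoters of the table (7.43%). Among genes at least 2-fold higher it was in 19 of 39 (48.7%), and among those at least 2-fold lower in 1 of 59 (1.69%). The share was 34.4% in all tested genes with a change of 1 or more and 6.49% in those with a change of -1 or less. Another hexamer of the E-box form, CAGCTG, chosen after the data were seen, was in 16.2%, 18.8% and 16.7% of promoters of genes called higher, called lower and tested. Among genes at least 2-fold higher and lower it was in 12 of 39 (30.8%) and 15 of 59 (25.4%). Median GC content was 64.7%, 65.7% and 65.3% in the same 3 sets. These shares are descriptions of letters in a window, not of binding.

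**Figure D4:**
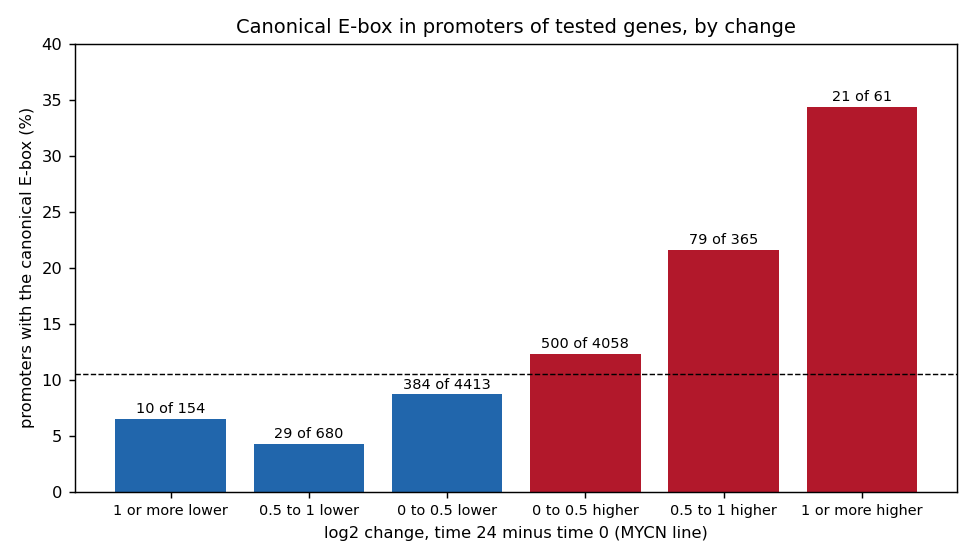
Percent of RefSeq promoters that hold the canonical E-box (y axis) among tested genes grouped by their log2 change of time 24 minus time 0 in the MYCN line (x axis), with the number of promoters on each bar and a dashed line at 10.5%, the share over all tested genes. The bars reach 34.4% in genes with a change of 1 or more.

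The 250 bases before the start of 6 genes called higher show where the hexamer sits in genes of different roles (5' to 3' on the strand of the gene, CACGTG in capitals, RefSeq, GRCh38.p14). CTSF (chr11:66568607-66568856, minus strand) holds 2 copies, and POLR1G (chr19:45406394-45406643, plus strand), SLC7A5 (chr16:87869508-87869757, minus strand), HERC5 (chr4:88456869-88457118, plus strand), MARS2 (chr2:197705119-197705368, plus strand) and HSPE1 (chr2:197500129-197500378, plus strand) hold 1 each.
CTSF: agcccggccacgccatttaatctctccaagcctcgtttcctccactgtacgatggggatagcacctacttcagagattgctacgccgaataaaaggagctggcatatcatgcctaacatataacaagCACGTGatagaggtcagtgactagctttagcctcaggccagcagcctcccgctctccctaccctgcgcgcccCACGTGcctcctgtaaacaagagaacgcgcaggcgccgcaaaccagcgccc
POLR1G: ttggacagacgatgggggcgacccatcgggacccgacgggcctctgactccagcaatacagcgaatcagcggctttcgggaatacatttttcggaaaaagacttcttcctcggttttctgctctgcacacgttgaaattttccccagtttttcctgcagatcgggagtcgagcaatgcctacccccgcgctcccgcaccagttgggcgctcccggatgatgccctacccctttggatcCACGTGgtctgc
SLC7A5: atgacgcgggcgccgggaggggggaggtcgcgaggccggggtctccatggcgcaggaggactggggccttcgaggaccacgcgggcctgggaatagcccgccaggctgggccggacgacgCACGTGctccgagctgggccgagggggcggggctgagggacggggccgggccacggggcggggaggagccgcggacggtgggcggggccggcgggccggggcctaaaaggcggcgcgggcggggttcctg
HERC5: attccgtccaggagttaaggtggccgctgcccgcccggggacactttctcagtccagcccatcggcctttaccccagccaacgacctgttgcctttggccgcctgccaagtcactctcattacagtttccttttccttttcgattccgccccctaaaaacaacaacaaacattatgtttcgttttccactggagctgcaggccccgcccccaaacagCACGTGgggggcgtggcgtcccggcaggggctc
MARS2: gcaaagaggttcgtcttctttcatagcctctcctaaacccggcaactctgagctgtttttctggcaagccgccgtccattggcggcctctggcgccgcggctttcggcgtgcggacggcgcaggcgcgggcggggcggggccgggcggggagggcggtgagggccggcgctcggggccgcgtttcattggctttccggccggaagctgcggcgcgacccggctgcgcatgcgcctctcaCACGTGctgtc
HSPE1: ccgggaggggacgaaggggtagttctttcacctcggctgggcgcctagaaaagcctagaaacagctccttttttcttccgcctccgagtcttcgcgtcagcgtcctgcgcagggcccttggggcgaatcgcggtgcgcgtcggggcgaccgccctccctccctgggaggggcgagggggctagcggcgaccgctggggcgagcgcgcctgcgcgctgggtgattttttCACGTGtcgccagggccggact
Counted from the gene start to the first base of the hexamer, the copies of CTSF lay 123 and 51 bases upstream and the single copies 12 bases upstream in POLR1G, 130 in SLC7A5, 33 in HERC5, 11 in MARS2 and 22 in HSPE1. HERC5 was the 1 interferon response gene called higher, and IRF9, called lower, holds the hexamer as well, 71 bases upstream. So do other named genes called lower: STMN1 (94 and 50 bases upstream), NEU1 (126) and CD63 (180). Of the 15 largest increases 9 had a promoter and 2 of these held the hexamer, and of the 15 largest decreases 12 had a promoter and 0 held it. The windows of ODC1 and MXI1, both called higher, hold no CACGTG.

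The mock line was set beside these changes to ask what moved without the transgene. Between its single arrays of times 24 and 0, 108 genes were at least 2-fold higher (0.91%) and 203 at least 2-fold lower (1.71%), against 89 (0.75%) and 185 (1.56%) by the mean of 3 arrays in the MYCN line, without a test on either side. Genes called higher had a median mock change of 0.05 and those called lower -0.09, beside 0.00107 over all genes. Of the genes called higher 58.4% were also positive in the mock line, where 50.2% of all genes were, and 61.6% of those called lower were also negative, where 49.7% of all genes were. The difference of the 2 changes was tested in a fit of all 28 arrays, in which the single mock arrays are assumed to vary like the replicates of the MYCN line. It was called for 48 genes (0.405%), positive for 41 (0.346%) and negative for 7 (0.059%), while 940 had an unadjusted p under 0.05. A total of 34 of the 48 were also called between times 24 and 0 in the same direction. The count was 2 without replicate 1 or replicate 2 of every time, 30 and 29 without replicate 1 or 2 of time 24, and 2 with only the arrays of times 24 and 0. The mock arrays lie in the control-signal set of replicate 3, and with that set as a block it was 99.

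**Figure D5:**
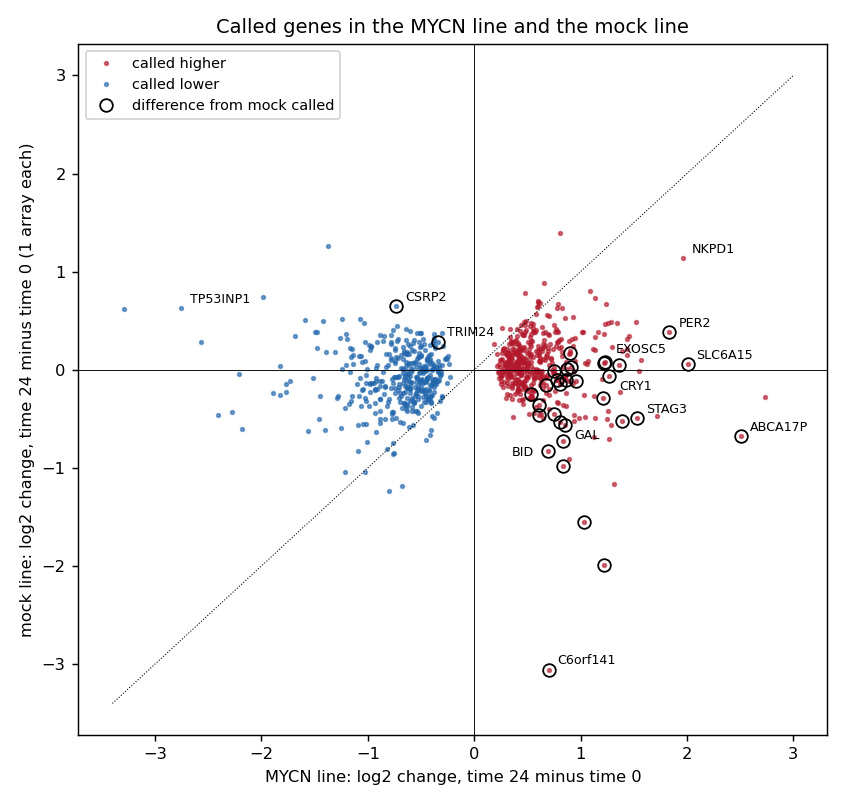
Log2 change of time 24 minus time 0 in the MYCN line (x axis, mean of 3 arrays at either time) and in the mock line (y axis, 1 array at either time) for the genes called between the times, without MYCN; the dotted line marks equal changes and open circles mark genes whose difference from the mock line was called. With MYCN included, the median mock change was 0.05 among the 464 genes called higher and -0.09 among the 388 called lower. The difference from the mock line was called in the same direction for 32 and 2 of these. C6orf141 is circled for a mock change of -3.06.

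Genes whose change in the MYCN line exceeded that of the mock line included PER2 (difference 1.45, SE 0.25, limma adjusted p = 0.0131), CRY1 (1.32), SLC6A15 (1.95), ABCA17P (3.19), STAG3 (2.02), ODC1 (0.83), GAL (1.57) and BID (1.52), besides MYCN (5.66). EXOSC5 (1.15), GTF3A (0.73), PUS7 (0.88), RPIA (1.07), SLC25A26 (1.15) and TAF4B (1.31) did so as well. BID and GAL also moved in the mock line, where BID read 130 and 230.4 and GAL 42.1 and 69.7 at times 24 and 0. Among the genes called lower 2 differed from the mock line, CSRP2, a LIM-domain protein (-1.38), and TRIM24, a transcriptional cofactor (-0.63). CSRP2 read 371, 291 and 327 at time 24 and 500.1, 599.5 and 539 at time 0, against 209 and 134 in the mock line. In 19 of the 48 genes the mock change was the larger of the 2, and in 18 a mock array read under 12.8. USH1G (4.13), HPDL (3.89), C6orf141 (3.76) and LRRC61 (3.44) were of this kind, as C6orf141 read 2.5 and 20.8 in the mock line at times 24 and 0. BST2 (-1.63), which encodes the antiviral protein tetherin, POU3F2 (-1.82), APLP1 (-2.79), ATP2A3 (-3.14) and LINC01711 (-2.69) read higher at time 24 than at time 0 in the mock line, where they were at 3.8 to 9.5 at time 0, under 12.8, and were not called in the MYCN line.

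Time 24 was also compared with its neighbours in the course, in the same fit. Between times 24 and 8, 80 genes were called (0.674%), 53 higher (0.447%) and 27 lower (0.228%), and 43 and 24 of these were also called between times 24 and 0 in the same direction. Both comparisons share the arrays of time 24. ABCA17P had not risen at time 8 (change -0.32) and was 2.83 higher at time 24 than at time 8 (adjusted p = 7.45e-06), and CTSF (0.18 at time 8) was 1.26 higher (adjusted p = 4.94e-04). STAG3 was 1.70 higher, TEX15 1.17 and NKPD1 1.15. EXOSC5 was at 0.30 at time 8 and 0.93 higher at time 24 (adjusted p = 2.94e-07), and GTF3A was 0.72 higher. ADAMTS13 (-2.02), TP53INP1 (-1.89), PEX39 (-1.33), CTSO, a cathepsin (-0.94), and CCDC157 (-2.23) were lower at time 24 than at time 8. Most of these genes were named for the size of this change, and the change after time 8 was not tested against that before it. MYCN differed by 0.15 between times 24 and 8 (limma adjusted p = 0.859). Of the 464 genes called higher at time 24, 447 had a positive change at time 8, as had 5448 of all 11865 genes, and 65 were called there. Both changes share the arrays of time 0, so nothing is read from this overlap. The count between times 24 and 8 was 2, 6 and 27 without replicate 1, 2 or 3 of every time, 24, 33 and 27 without replicate 1, 2 or 3 of time 24, and 16 with equal medians, of which 87.5% were higher, against 66.2% with the deposited scaling.

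Between times 48 and 24, 0 genes were called (limma, 335 at an unadjusted p under 0.05), and 0 also with the replicate number as a block (696 unadjusted). Without replicate 3 of every time 39 genes were called and without replicate 3 of time 48 there were 12, while leaving out replicate 2 of every time or of time 24 gave 1 each and the mean of probe sets gave 2. PER2 stood 1.79 above time 0 at time 48, CRY1 1.31, SLC6A15 2.22, ABCA17P 2.63, BMAL1 -1.76, HAS2 -2.29 and IGFBP5 -3.13. Some means were further apart: ADAMTS13 averaged 16.7 at time 48 and 4.57 at time 24, PSG6 18.8 and 6, and LINC03095 27.6 and 55. The medians over lists at time 48 were 0.26 for ribosome biogenesis, 0.30 for chaperones and -0.54 for the interferon response. A p that misses the threshold does not show that levels at times 24 and 48 were equal.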

How the data were processed

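RNA of 28 cell line samples was labelled in a single amplification cycle and hybridised to Affymetrix arrays, per the labels' protocols. The authors deposited linear intensity values, which were made with MAS5 and GCOS per the submitters' processing notes, without versions. No further scaling was applied, and the deposited values were taken to log2, with 0.1 in place of the 91 that were 0 or negative. By the platform annotation, 41097 of 54675 probe sets named 1 gene, 1801 several and 11777 none, and 41037 matched a current gene identifier; the 62 control probe sets were left out. The brightest probe set by mean log2 signal stood for each of 19775 genes, and the 11865 genes from the 40th percentile of that mean upward (signal 12.8) were tested. Small signals scatter widely on the log scale.

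Tests were run in limma 3.58.1 under R 4.3.3, with lmFit and a trended eBayes on 14 residual degrees of freedom. Time contrasts came from the 21 arrays of the MYCN line and the difference from the mock line from all 28. Data were simulated for time 24 against time 0 over 11865 genes. Log2 changes of 0.5, 1 and 2 were given to 67, 67 and 66 of them. The test recovered 28.4%, 67.2% and 97% of these and called 5 unchanged genes. The share of changed genes may differ in the measured data, so these rates need not hold there. The members, the 49 gene lists and the rules were chosen with earlier results of these data known, so no list was tested. Named genes were MYCN, MYC and MAX, the 15 largest increases and decreases among called genes with arrays apart, up to 4 called members of each list with the smallest p (or 1 where none was called), and up to 5 genes in either direction for each of the other comparisons. The genes EXOSC5, GTF3A, PUS7, RPIA, SLC25A26, TAF4B, FN1, RRM2, SDHD, CSRP2 and TRIM24 were named after their values were seen. Whether replicate numbers pair arrays was judged from the correlation of their deviations from the group means. For times 48 and 24 these were 0.163, 0.154 and 0.429 (replicates 1, 2 and 3), and for the other contrasts not all were above 0.1. Replicate 1 of time 48 correlated best with replicate 2 of time 24, so numbers 1 and 2 do not clearly mark pairs. In each contrast replicate 3 correlated best with replicate 3. The values were 0.329 for times 24 and 0 and 0.428 for times 24 and 8. All main tests were run without pairs, and the replicate block was an alternative setting. Promoters were searched with Python 3.11.15. Settings varied are given in the closing section.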

Additional observations from a re-analysis of the deposited data

Results flagged for a closer look

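The change between times 24 and 0 differed between the MYCN line and the mock line for the following genes, by the test of the difference itself (limma, adjusted p under 0.05). Values are the log2 change in the MYCN line minus that in the mock line, from 3 arrays at either time for the MYCN line and 1 for the mock line, whose spread is assumed to be that of the MYCN line. Genes called higher at time 24 whose difference was positive were MYCN (5.66), ABCA17P (3.19), STAG3 (2.02), SLC6A15 (1.95), GAL (1.57), BID (1.52), PER2 (1.45), CRY1 (1.32), TAF4B (1.31), EXOSC5 (1.15), SLC25A26 (1.15), RPIA (1.07), PUS7 (0.88), ODC1 (0.83) and GTF3A (0.73). C6orf141 (3.76) was called higher too, but the mock line carried most of its difference, with 2.5 at time 24 and 20.8 at time 0. Genes called lower whose difference was negative were CSRP2 (-1.38) and TRIM24 (-0.63). The change was not called in the MYCN line for USH1G (4.13), HPDL (3.89) and LRRC61 (3.44), which read 1.2 to 3.0 in the mock array of time 24, nor for ATP2A3 (-3.14), APLP1 (-2.79), LINC01711 (-2.69), POU3F2 (-1.82) and BST2 (-1.63), which were higher in the mock array of time 24 than in that of time 0, where they read 3.8 to 9.5, under 12.8, so the sizes of these differences are uncertain.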

How the results depend on the processing

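Each result was recomputed under up to 20 different settings, 1 changed at a time. Within replicates 1 and 2 and without replicate 3 of every time are the same fit of the time contrasts and count as 1. Between times 24 and 0 the count of 852 calls moved to 507 when arrays had equal medians, 518 when a gene's probe sets were averaged, 561 without probe sets suffixed _s_at and _x_at, 1604 with the control-signal set as a block and 1773 with the replicate number as a block; it ran from 164 to 726 when arrays were left out and was 656 within replicates 1 and 2. For the difference from the mock line the 48 calls became 25 with equal medians, 31 with a stricter filter on dim genes, 27 with the mean of probe sets, 20 with log2 of the signal plus 16, 2 with only the arrays compared, 99 with the control-signal set and 126 with the replicate block, and 2 to 53 when arrays were left out; it was not run within replicates 1 and 2, since the mock arrays are not in that set. Between times 24 and 8 the 80 calls became 16 with equal medians, 52 without the filter, 51 with the mean of probe sets, 44 without suffixed probe sets, 275 with the control-signal set, 322 with the replicate block, 27 within replicates 1 and 2, and 2 to 45 when arrays were left out. Between times 48 and 24 the 0 calls became 2 with the mean of probe sets, 39 within replicates 1 and 2, and 0 to 39 when arrays were left out. Replicate numbers of times 24 and 0 correlated at 0.156, -0.0608 and 0.329 (replicates 1, 2 and 3) and were not taken as pairs. Over the 3054 values of named genes under these settings, 2495 kept their direction and side of the threshold, 515 lost their call, 37 gained one and 7 changed sign. The sign changes were CCNE1 (-0.10), DDX10 (-0.14) and SDHD (-0.064) with the mean of probe sets, and MYCN (-1.45), MAX (-0.26), PAICS (-0.087) and PPID (-0.025) without suffixed probe sets, each read there by other probe sets. Of 136 named genes called, 27 kept their call under every setting that tested them. The cause of the other shifts was not tested. Changes of genes whose signal lies near 12.8 are the least certain.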
